A study of Mus musculus with 12 samples.

Results

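Cornified envelope and squamous differentiation genes were followed in the newborn mouse uterus and vagina, in mice with 1 or both Trp63 copies floxed and Pax2-cre. The set holds 10 genes (Sfn, Ppl, Evpl, Tgm1, Ivl, Sprr1a, Sprr1b, Krtdap, S100a14 and Cnfn), and every probe whose platform symbol is one of them was taken, which gave 17 of the 45281 probes on the array. Each gene is 1 of the 19057 symbols that probes with a single symbol carry. Of these, 11 probes of 8 genes were above background on at least 4 of the 12 arrays and were tested. The 3 probes of Sprr1b and Cnfn did not, so neither gene was tested. RNA was measured on 1-colour Illumina bead arrays in 3 groups of 4 samples, each the pooled tissue of 3 females of mixed strain (C57BL/6, S129/5 and CD-1) at postnatal day 3. The cHet uterus and cHet vagina came from Trp63 flox/wt ; Pax2-cre mice, and the cKO vagina from mice with both Trp63 copies floxed and the same Pax2-cre. All 3 groups thus carry Pax2-cre and at least 1 floxed copy, and no sample without them enters a comparison. The recombinase is driven by Pax2 sequences, and the sources used here do not say which vaginal cells it reached. Each array is a whole organ, so fewer cells of a type and less RNA per cell cannot be told apart in any value below.

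Stratified squamous epithelium renews from a basal layer that expresses Trp63, the gene of the transcription factor p63. As cells leave that layer they build the cornified envelope, a protein shell under the plasma membrane. Periplakin (Ppl) and envoplakin (Evpl) form its first scaffold at the membrane, transglutaminase 1 (Tgm1) cross-links it, and involucrin (Ivl), the small proline-rich proteins (Sprr1a, Sprr1b) and cornifelin (Cnfn) are built into it. Stratifin (Sfn, also called 14-3-3 sigma) regulates the cell cycle and keratinocyte differentiation, keratinocyte differentiation-associated protein (Krtdap) is made by suprabasal cells, and S100a14 is a calcium-binding protein of the S100 family made in epithelia. The adult vagina is lined by such an epithelium and the adult uterus by a simple columnar one.

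The promoters that RefSeq lists for members are shown first, because they divide the set in a way that the probe values did not enter. RefSeq's table (build GRCm38.p6) held 8 promoter entries for 7 of the 10 genes; Ppl, Evpl and S100a14 are named only. Windows of 250 bases before the listed start were searched for 3 short motifs: the AP-1 site TGANTCA on both strands, the TATA box TATAAA on the gene's strand, and the KLF-type box CCCACCC on both strands. An AP-1 match and a TATA box stood in the windows of Ivl, Sprr1a, Sprr1b and Krtdap, and neither was found in those of Sfn, Tgm1 or Cnfn. Over the 32851 promoters of the table, 6.75% hold the AP-1 letters, 7.59% the TATA box and 15.8% the KLF-type letters. A match describes the letters and is not a site shown to be bound, and the lack of one says only that these letters are not in the window. Below are 3 windows with matches and that of Sfn, the member with the largest difference between vaginal groups, for contrast, each from 5′ to 3′ with the matches in capitals. They lie at chr3:92573736-92573985 (minus strand), chr3:92485882-92486131 (minus strand), chr7:30787655-30787904 (plus strand) and chr4:133602169-133602418 (minus strand), and the last bases of the Ivl window fall inside the annotated span of that gene.
Ivl: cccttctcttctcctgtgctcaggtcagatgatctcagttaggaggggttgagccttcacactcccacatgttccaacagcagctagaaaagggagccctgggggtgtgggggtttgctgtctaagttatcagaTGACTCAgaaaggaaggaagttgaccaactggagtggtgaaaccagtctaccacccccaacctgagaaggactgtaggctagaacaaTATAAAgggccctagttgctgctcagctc
Sprr1a: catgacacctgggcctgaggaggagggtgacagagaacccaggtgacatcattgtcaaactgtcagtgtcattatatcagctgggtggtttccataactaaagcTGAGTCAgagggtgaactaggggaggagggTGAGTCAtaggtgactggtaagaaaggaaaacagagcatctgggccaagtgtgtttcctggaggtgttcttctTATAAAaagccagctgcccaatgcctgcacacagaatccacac
Krtdap: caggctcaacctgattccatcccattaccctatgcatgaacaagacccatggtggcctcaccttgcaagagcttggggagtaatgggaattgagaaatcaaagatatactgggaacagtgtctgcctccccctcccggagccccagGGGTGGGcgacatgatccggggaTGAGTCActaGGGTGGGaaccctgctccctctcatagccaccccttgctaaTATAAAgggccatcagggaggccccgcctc
Sfn: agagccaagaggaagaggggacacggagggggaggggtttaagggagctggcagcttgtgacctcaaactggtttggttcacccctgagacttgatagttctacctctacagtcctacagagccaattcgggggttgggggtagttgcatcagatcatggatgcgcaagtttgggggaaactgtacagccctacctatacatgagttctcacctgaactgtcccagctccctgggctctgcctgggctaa

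In the Ivl window the AP-1 letters begin 116 bases before the start and the TATA box 29 bases before it. Sprr1a has 2 AP-1 matches, beginning at 146 and 116 bases, and a TATA box at 43 bases. In Krtdap the AP-1 match begins at 81 bases and the TATA box at 30 bases, and the other capitals are 2 KLF-type boxes read on the opposite strand, beginning at 104 and 71 bases. The Sprr1b window, not printed, has an AP-1 match at 111 bases and a TATA box at 30 bases. The longer half-site of the p53 family, which p63 belongs to, was also searched and was in none of the 8 member windows, against 7.13% of all promoters. Ivl, Sprr1a, Sprr1b and S100a14 all lie on chromosome 3, where the epidermal differentiation complex gathers many cornified envelope genes, while Krtdap and Cnfn are on chromosome 7. Sfn lies on chromosome 4, Ppl on 16, Evpl on 11 and Tgm1 on 14.

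Before the members, the targeted gene and the arrays were examined. The Trp63 probe that passed the filter read 9.75, 9.57, 9.36 and 9.71 in the cHet vagina and 9.07, 9.73, 9.43 and 9.91 in the cKO vagina (log2 intensity, replicates 1 to 4), and the vaginal groups overlapped. The sources used here do not place the floxed part or this probe within the transcript, so the reading is no check of the deletion or of the labels. Arrays of 1 group correlated with r of 0.972 to 0.991 over the 11298 genes tested, and 39.3% to 47.9% of the probes on an array were above background. No label names a batch, but replicates 3 and 4 differed from replicates 1 and 2 in 12.2% of the genes tested, so each difference is also given within each of these sets. Throughout, a gene is called when the limma test with Benjamini-Hochberg adjustment over all 11298 genes gives an adjusted p under 0.05, and differences are in log2 intensity.

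**Figure D1:**
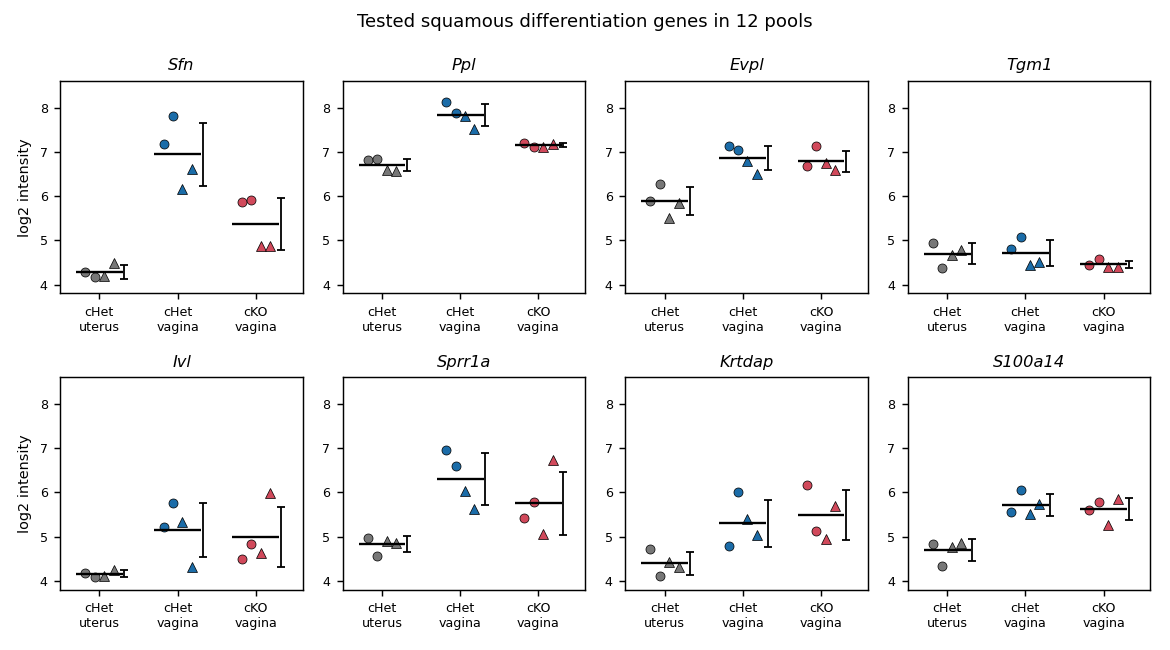
The log2 intensity of the probe that stands for each of the 8 tested members is plotted by group, with circles for replicates 1 and 2, triangles for replicates 3 and 4, a line at the mean and a bar of 1 SD (n = 4 pools). The cKO vagina lies between the other groups for Sfn and Ppl, on the cHet vagina for Evpl and S100a14, and spreads widely for Ivl and Sprr1a; levels of different genes come from different probes and are not comparable.

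The vagina of Trp63 cKO mice was compared with that of cHet mice to ask which squamous genes change when both copies of Trp63 are floxed. Sfn and Ppl fell, by 2.96-fold and 1.60-fold, and no member rose. The other 6 tested members did not pass the test, among them Evpl, the partner of Ppl in the envelope scaffold. Thus 2 of 8 members were called lower, where 0.327% of all genes tested were called lower and 0.0531% higher. The median difference was -0.21 over the 8 members and -0.01 over all genes, and 7 of the 8 estimates were below 0. The size of both called differences depended on the processing: Sfn gave -0.84 without background correction and -1.06 with an offset of 50, where it was not called (adjusted p = 0.152 and 0.101), and Ppl gave -0.38 with the mean of its kept probes (adjusted p = 0.225).

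Sfn, the differentiation and cell-cycle regulator, read 7.18, 7.82, 6.16 and 6.61 in the cHet vagina and 5.86, 5.92, 4.86 and 4.86 in the cKO vagina. Every cKO pool was below every cHet vaginal pool, and all 8 pools were above background. The cHet mean of 6.94 ± 0.72 and the cKO mean of 5.37 ± 0.59 (SD, n = 4 pools) lay -1.57 apart (SE 0.31, adjusted p = 0.0359). Within replicates 1 and 2 the difference was -1.61, and within replicates 3 and 4 it was -1.52, so the fall was of like size in both sets. Over all groups Sfn was itself lower in replicates 3 and 4 than in replicates 1 and 2, by -0.68 (SE 0.19, adjusted p = 0.0272). With these 2 sets as a block in the fit, which no label names, the adjusted p was 0.00179. In the reported fit, which has no block, the call survived the omission of cKO vagina replicate 2 or of cHet vagina replicates 3 or 4. It was lost without any of the other 9 arrays (adjusted p = 0.0515 to 0.155). Over the 12 omissions the difference ran from -1.83 to -1.27.

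Ppl, the periplakin gene, is read by 3 kept probes, and the brightest stands for it. That probe read 8.12, 7.87, 7.80 and 7.51 in the cHet vagina and 7.20, 7.11, 7.10 and 7.17 in the cKO vagina. The cKO pools lay close together, and all were below the cHet pools. The cHet mean of 7.83 ± 0.25 and the cKO mean of 7.15 ± 0.05 (SD, n = 4 pools) lay -0.68 apart (SE 0.14, adjusted p = 0.0473). The first set of replicates gave -0.84 and the second -0.52. With the 2 sets as a block in the fit the adjusted p was 0.0115. The call of the reported fit, which has no block, was kept only without cHet vagina replicate 4. It was lost without any other array (adjusted p = 0.0527 to 0.187).

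Evpl, the envoplakin gene, was not called. It read 7.12, 7.03, 6.79 and 6.51 in the cHet vagina and 6.67, 7.12, 6.74 and 6.60 in the cKO vagina, with the groups overlapping. The difference was -0.08 (95% interval -0.47 to 0.31, adjusted p = 0.970). The interval of Ppl ran from -0.98 to -0.38. Overlap of such intervals is no test, and whether Ppl and Evpl differ in response was not tested.

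Tgm1, the cross-linking enzyme, read 4.81, 5.07, 4.44 and 4.50 in the cHet vagina and 4.44, 4.57, 4.40 and 4.39 in the cKO vagina. These values are close to background in both groups. The difference was -0.25 (95% interval -0.59 to 0.09, adjusted p = 0.833).

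The precursors Ivl and Sprr1a varied widely from pool to pool. Ivl read 5.21, 5.76, 5.33 and 4.31 in the cHet vagina and 4.49, 4.84, 4.64 and 5.98 in the cKO vagina. Sprr1a read 6.97, 6.59, 6.03 and 5.63 in the cHet vagina and 5.43, 5.79, 5.07 and 6.73 in the cKO vagina. For both genes cHet vagina replicate 4 was the lowest cHet pool and cKO vagina replicate 4 the highest cKO pool, and cHet replicate 4 was not above background for Ivl. The differences were -0.16 for Ivl (95% interval -0.80 to 0.47, adjusted p = 0.962) and -0.55 for Sprr1a (95% interval -1.21 to 0.11, adjusted p = 0.810).

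The sets of replicates gave opposite signs for both precursors. In replicates 1 and 2 the differences were -0.82 for Ivl and -1.17 for Sprr1a, and in replicates 3 and 4 they were 0.49 and 0.07. Tested in replicates 1 and 2 alone, Sprr1a was called lower (adjusted p = 0.0450). Whether the sets themselves differ in this response was not tested. Sprr1a and Sprr1b are near relatives, and the probe sequences are not given in the files, so signal shared between them was not tested.

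Krtdap and S100a14, of the suprabasal and epithelial cells, did not pass the test either. Krtdap read 4.79, 6.01, 5.40 and 5.04 in the cHet vagina and 6.18, 5.13, 4.96 and 5.70 in the cKO vagina, a difference of 0.19 (95% interval -0.39 to 0.76, adjusted p = 0.953). S100a14 read 5.56, 6.05, 5.51 and 5.73 in the cHet vagina and 5.61, 5.78, 5.27 and 5.84 in the cKO vagina, a difference of -0.09 (95% interval -0.46 to 0.27, adjusted p = 0.962). The groups overlapped for both. The other kept S100a14 probe, described below, gave -0.56 with no overlap, so the count of members without overlap depends on the probe chosen. By the probes that stand for the 8 members, 2 had groups that did not overlap, both lower in the cKO vagina, where 2.63% of all genes were lower without overlap.

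**Figure D2:**
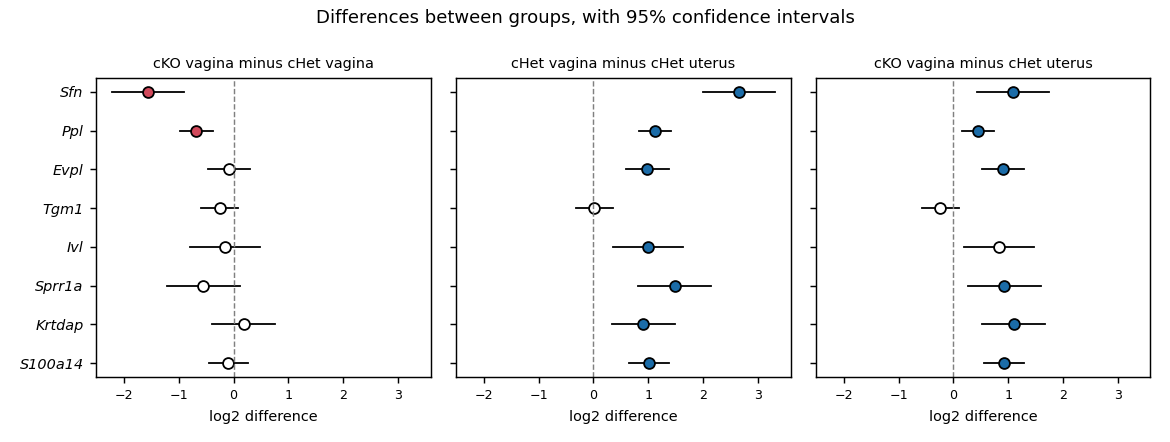
For each tested member the difference in log2 intensity is plotted with its 95% confidence interval for the 3 comparisons; filled points were called and open points were not. Sfn and Ppl lie left of 0 in the first panel, where the other intervals cross 0, and the intervals of all members but Tgm1 lie right of 0 in the panels against uterus.

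The cHet vagina was compared with the cHet uterus to ask what the squamous programme looked like in the control organs at this age. All tested members except Tgm1 were higher in the vagina, with differences of 0.91 to 2.66. Thus 7 of 8 members were called higher, where 9.33% of all genes were called higher and 9.04% lower. In those 7 every vaginal pool was above every uterine pool, where 10.7% of all genes were higher without overlap. Sfn, Ivl and Krtdap were above background on 1, 0 and 1 of the 4 uterine arrays. They passed the filter through vaginal arrays, so their direction against the uterus was partly set by the filter. The untested Sprr1b and Cnfn are outside these counts. The median difference was 1.005 over the 8 members and -0.02 over all genes. It was 0.58 over the members without background correction, where 5 were called. Beside this, 17 of 18 pan-epithelial markers were also called higher in the cHet vagina, with a median of 1.33, and their part in the member differences was not tested.

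Sfn differed most among the members. In the uterus it read 4.29, 4.16, 4.19 and 4.49, above background on 1 of the 4 arrays. Its vaginal level stood 2.66 above the uterine one (SE 0.31, adjusted p = 1.02e-05), against a uterine level that is mostly background. This difference was 1.23 without background correction. Within replicates 1 and 2 the difference was 3.28 and within replicates 3 and 4 it was 2.04.

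Both scaffold genes were well above background in the uterus too. Ppl read 6.81, 6.83, 6.60 and 6.57 there and was higher in the vagina by 1.12 (SE 0.14, adjusted p = 1.91e-05). Evpl read 5.89, 6.27, 5.50 and 5.85 in the uterus and was higher in the vagina by 0.98 (SE 0.18, adjusted p = 0.000898). Ppl and Evpl were thus higher in the vagina by similar amounts, and both sets of replicates gave differences of 0.97 to 1.18 for them.

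The precursors were at or near background in the uterus. Ivl read 4.18, 4.10, 4.10 and 4.26 there, not above background on any array, and was at least 1.58-fold higher in the vagina (adjusted p = 0.0296), with vaginal and uterine means of 5.15 ± 0.61 and 4.16 ± 0.08 (SD, n = 4 each). Such a bound sets the bright group's mean against the dimmest signal that counts as above background, or the dim probe's own where that is higher. It holds for the reported processing only and is no confidence limit. Over the alternatives the Ivl difference went down to 0.36. Sprr1a read 4.98, 4.57, 4.89 and 4.87 in the uterus and was higher in the vagina by 1.48 (SE 0.31, adjusted p = 0.00247). Its difference was 2.004 in the first set of replicates and 0.95 in the second. The Ivl call did not survive the omission of any uterine array or of cHet vagina replicates 1, 2 or 3, which makes 7 arrays (adjusted p = 0.0519 to 0.101).

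Krtdap and S100a14 followed the same order of organs. Krtdap read 4.73, 4.11, 4.43 and 4.31 in the uterus, above background on 1 array, and was higher in the vagina by 0.91 (SE 0.27, adjusted p = 0.0273). S100a14 read 4.83, 4.33, 4.76 and 4.87 in the uterus and was higher in the vagina by 1.02 (SE 0.17, adjusted p = 0.000371). The Krtdap call was lost without cHet uterus replicate 2, 3 or 4 or cHet vagina replicate 2 or 3 (adjusted p = 0.0529 to 0.0939), whereas the S100a14 call was kept without any 1 array. Tgm1 was the exception among the members. It read 4.93, 4.38, 4.68 and 4.78 in the uterus, and its difference was 0.01 (95% interval -0.33 to 0.35, adjusted p = 0.975).

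The cKO vagina was compared with the cHet uterus to see how far the squamous genes still stood above the uterine level. Of the 8 members 6 were called higher, where 8.82% of all genes were called higher and 9.33% lower, and 7 were higher without overlap, where 10.4% of all genes were. The member median was 0.92, and 0.36 without background correction, where 4 members were called. Of 18 pan-epithelial markers 16 were called higher too. Sfn was higher by 1.09 (SE 0.31, adjusted p = 0.0206) and Ppl by 0.45 (SE 0.14, adjusted p = 0.0353). Evpl was higher by 0.91 (SE 0.18, adjusted p = 0.00194), Krtdap by 1.10 (SE 0.27, adjusted p = 0.00877) and S100a14 by 0.93 (SE 0.17, adjusted p = 0.000940). The same uterine pools serve both comparisons with the uterus, so the 2 comparisons are not independent. Here too Sfn, Ivl and Krtdap passed the filter through vaginal arrays, which partly set their direction.

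The calls of the precursors were less firm here. Sprr1a was higher in the cKO vagina by 0.93 (SE 0.31, adjusted p = 0.0484). Ivl was at least 1.41-fold higher on its bound and did not pass the test (adjusted p = 0.0711). Tgm1 gave -0.24 (95% interval -0.58 to 0.10, adjusted p = 0.364).

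Leaving out 1 array removed several of these calls. Sprr1a stayed called only when the omitted array was cKO vagina replicate 3 or one of cHet vagina replicates 1 and 4, and omitting any of the other 9 gave an adjusted p of 0.0520 to 0.151. Ppl was lost without cHet uterus replicate 3 or 4 or any cKO vaginal array (adjusted p = 0.0594 to 0.101). For Sfn the arrays that decided the call were cHet uterus replicates 2 and 3 and the cKO vaginal replicates 1 and 2, each of which left an adjusted p between 0.0515 and 0.0736. Evpl, Krtdap and S100a14 kept their calls without any 1 array.

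Agreement between probes of a gene was examined for the 6 members with more than 1 probe. Only Ppl and S100a14 have more than 1 kept probe, so only they could be tested on each of several probes, with the adjustment over all 21080 kept probes. In that fit 0.280% of probes were called lower in the cKO vagina and 0.0474% higher, and Sfn alone of the 11 member probes was called (adjusted p = 0.0424).

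For Ppl the brightest probe gave -0.68 in the cKO against the cHet vagina (adjusted p = 0.0560 over probes). Its first other probe read 7.48, 7.32, 7.39 and 7.23 in the cHet vagina and 6.84, 6.99, 6.77 and 6.94 in the cKO vagina, with no overlap, a difference of -0.47 (SE 0.13, adjusted p = 0.245). The remaining Ppl probe read 4.27 to 5.04 over the 12 arrays, above background on 8 of them, and differed by less than 0.01 between the vaginal groups. Against the uterus the 2 brighter probes gave 1.12 and 1.11 for the cHet vagina, while the dim probe gave -0.15. The brighter Ppl probes thus had the same order of groups, and the dim one showed no group apart from the others.

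The S100a14 probes parted on the effect of genotype. The probe that does not stand for the gene read 6.04, 6.24, 5.96 and 5.93 in the cHet vagina and 5.65, 5.44, 5.35 and 5.51 in the cKO vagina. All cKO pools were below all cHet vaginal pools, with a difference of -0.56 (SE 0.13, adjusted p = 0.1004) against -0.09 for the probe that stands for the gene. The difference was -0.60 in replicates 1 and 2 and -0.52 in replicates 3 and 4. Both probes were called higher in the cHet vagina than in the uterus, by 1.55 and 1.02, where 7.15% of kept probes were, so they shared the order of organs. Which transcripts each probe reads is not given in the files.

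The second probes of the other genes added little. Sfn has a second probe above background on 1 of 12 arrays, and that of Krtdap was above background on 3 of 12. The second Ivl probe, above background on 3 of 12 arrays, read highest in cHet vagina replicate 2 at 5.05 and next in cKO vagina replicate 4 at 4.76, the pools in which the kept Ivl probe was also highest in its group. Of the Cnfn probes, 1 was above background on 1 of 12 arrays and the other on none. The single Sprr1b probe was not above background on any array and read 4.09 to 4.31.

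**Figure D3:**
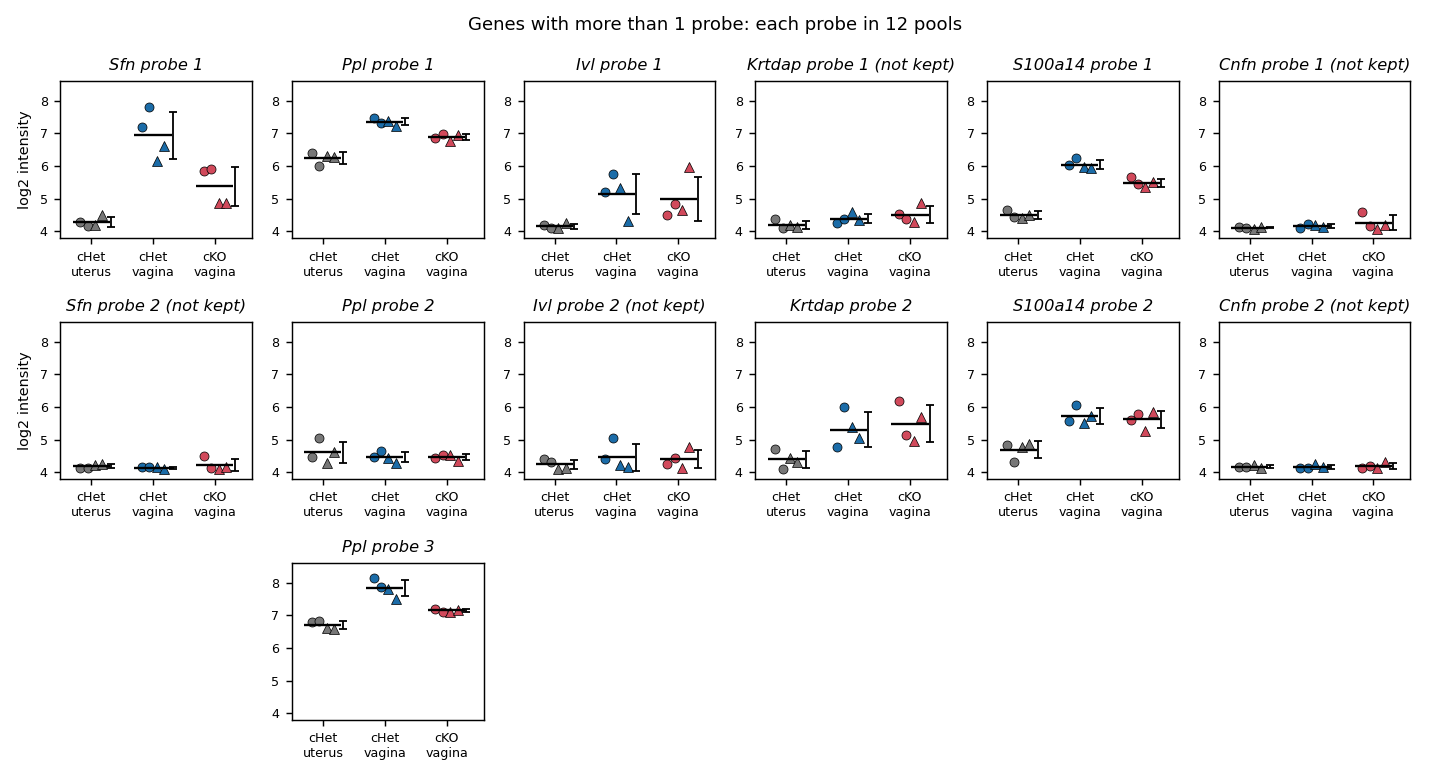
Each probe of the 6 members with more than 1 probe is plotted in log2 intensity by group, with circles for replicates 1 and 2, triangles for replicates 3 and 4, a line at the mean and a bar of 1 SD (n = 4 pools). Probes marked as not kept lie at the bottom of the scale in nearly every pool, and the kept S100a14 probes show different gaps between the vaginal groups.

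Related genes were examined to place the members within their families. Of the 7 genes of the 14-3-3 family, all tested, Sfn alone was called in the cKO against the cHet vagina, where 0.327% of all genes were called lower. The other 6, which are widely expressed, differed by -0.27 (Ywhaq) to 0.30 (Ywhae). Of the plakins, which link the cytoskeleton to membranes and junctions, 5 were tested and only Ppl was called there, with -0.11 for Plec and 0.20 for Dst. Against the cHet uterus 4 of these 5 plakins were higher in the cHet vagina, where 9.33% of all genes were. They were Ppl, Evpl, Plec (0.89, adjusted p = 0.000984) and Dst (0.79, adjusted p = 0.0205). Sfn was no longer called in the cKO vagina without background correction, with a larger offset or under median scaling, nor Ppl under median scaling.

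The transglutaminases, besides Tgm1, were represented by Tgm2, a widely expressed member, and Tgm5. Tgm2 was lower in the cHet vagina than in the uterus by -1.77 (SE 0.20, adjusted p = 7.29e-06), and gave -0.14 between the vaginal groups. No transglutaminase was called between the vaginal groups. Of 10 tested S100 genes of the same complex none was called there, and 4 were higher in the cHet vagina than in the uterus, among them S100a11 (0.79, adjusted p = 0.000529). In the same comparison 3 were lower, namely S100a1, S100a8 and S100a9. Of all genes 9.33% were called higher there and 9.04% lower.

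Other genes of the cornified envelope were mostly silent on these arrays. Of 42 such genes on the array 33 did not pass the filter and 9 were tested. None of the 9 was called between the vaginal groups, and their median was -0.09; Sprr2f, a small proline-rich protein gene, had the lowest estimate at -0.65 (adjusted p = 0.354), and Sprr2a1, the brightest, gave 0.16 (adjusted p = 0.914). Between the organs, Scel (sciellin, an envelope precursor) was at least 2.20-fold higher in the cHet vagina (adjusted p = 0.000226) and Sprr2f was higher by 1.05 (adjusted p = 0.00166). Lor (loricrin, a late envelope protein) was lower in the vagina by -0.78 (adjusted p = 0.0229), as were Lce3b, at least 2.17-fold (adjusted p = 2.43e-05), and Lce3c, by -1.41 (adjusted p = 2.07e-05). Lce3c was above background on 1 of 4 cHet vaginal arrays, and its difference ran from -1.79 to -0.52 over the alternatives. That of Lce3b ran from -1.64 to -0.46, and that of Scel went down to 0.51. Lce3b was above background on uterine arrays only, and Scel on vaginal arrays only. The filter thus partly set the direction of Lce3b, Lce3c and Scel. The Sprr2 and Lce3 genes have near-identical relatives, so their probe values are uncertain as to gene. The Lor call was lost without cHet uterus replicate 2 or 4 or cHet vagina replicate 1, 3 or 4 (adjusted p = 0.0502 to 0.0795).

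Of 35 other squamous differentiation genes on the array 20 were tested, and 3 fell in the cKO vagina, where 0.327% of all genes were called lower. Dapl1, a gene of early epithelial differentiation, read 6.97, 7.27, 7.37 and 7.34 in the cHet vagina and 5.14, 4.75, 4.33 and 5.28 in the cKO vagina, a difference of -2.36 (SE 0.21, adjusted p = 2.09e-05). Anxa8, an annexin, fell by 1.55 (SE 0.20, adjusted p = 0.00113) and Trim29, a gene of basal and squamous epithelium, fell by 1.44 (SE 0.22, adjusted p = 0.00589). All 3 kept these calls without any 1 array, unlike Sfn and Ppl. Over all 26 alternatives their smallest differences were -1.21 for Dapl1, -0.99 for Anxa8 and -0.68 for Trim29. Dapl1 was called in all 26, Anxa8 in 25 (adjusted p up to 0.0666) and Trim29 in 24 (adjusted p up to 0.0976). The median of the 20 genes was -0.20, and Emp1, the brightest of them, gave -0.16 (adjusted p = 0.867).

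Between the organs 11 of these 20 genes were higher in the cHet vagina and 2 were lower, where 9.33% and 9.04% of all genes were. Without background correction or with an offset of 50, 8 were called higher. Some of the 11 calls were lost on leaving out 1 array, that of Emp1 in 10 of 12 omissions. Anxa8 was higher by 3.18 (adjusted p = 1.31e-08) and Dapl1 by 2.80 (adjusted p = 8.18e-08), each against a uterine level above background on 1 of 4 arrays. Over the alternatives their differences went down to 1.62 and 1.36. Pof1b, an actin-binding protein of epithelial junctions, was at least 6.01-fold higher (adjusted p = 1.52e-08), Trim29 at least 3.92-fold (adjusted p = 2.28e-06) and Lypd3 at least 3.65-fold (adjusted p = 0.000625). Over the alternatives the log2 differences of Pof1b, Trim29 and Lypd3 went down to 1.32, 0.92 and 0.83. None of them was above background on a uterine array, so they passed the filter through vaginal arrays. The same held for Calml3, Ly6d, Ly6g6c and Perp among the 11. The direction of all these calls, and so the count of 11, was partly set by the filter. Alox12b, a lipoxygenase of the skin barrier, and Klk10, a secreted protease, were the 2 lower genes, by -1.67 (adjusted p = 1.24e-07) and -0.86 (adjusted p = 0.00975). Alox12b was above background on 1 of 4 cHet vaginal arrays, and its difference ran from -1.77 to -0.64 over the alternatives.

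Regulators of squamous differentiation were then read. None of the 9 tested was called between the vaginal groups, and their median was -0.40. Zfp750, a target of p63 in human keratinocytes that drives their differentiation, was named after its values were seen. It read 7.95, 8.003, 6.87 and 7.04 in the cHet vagina and 6.66, 6.44, 6.25 and 5.52 in the cKO vagina, with no overlap, a difference of -1.25 (SE 0.27, adjusted p = 0.0552). Cebpb, the brightest regulator, gave -0.41 (adjusted p = 0.861).

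In the cHet vagina, where 9.33% of all genes were higher than in the uterus, 6 of the 9 regulators were. They were Zfp750 (2.91, adjusted p = 7.75e-07), Hopx (1.80, adjusted p = 1.33e-05), Klf4 (1.76, adjusted p = 1.31e-06), Grhl3 (1.38, adjusted p = 0.00134), Grhl1 (1.20, adjusted p = 0.000125) and Ovol1 (at least 1.62-fold, adjusted p = 0.000252). All of them encode nuclear proteins that act in epithelial differentiation. Over the alternatives the Ovol1 difference went down to 0.30. Ovol1 was not above background on any uterine array and passed the filter through vaginal arrays, which partly set its direction against the uterus. Vdr, the vitamin D receptor gene, was lower by -0.82 (adjusted p = 0.000224). In the cKO vagina 5 of the 9 regulators were called higher than in the uterus, where 8.82% of all genes were, and 1 was lower; 3 were higher without background correction or with an offset of 50. Of these calls, Grhl1 was lost in 8 of the 12 omissions of 1 array (adjusted p = 0.0507 to 0.128) and Ovol1 without cHet uterus replicate 4 or cKO vagina replicate 2 (adjusted p = 0.0703 and 0.0709).

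Epithelial markers were read beside the members. None of 18 pan-epithelial markers was called between the vaginal groups, and their summed log2 level was 13.57 to 14.11 in the cHet vagina, 13.35 to 13.96 in the cKO vagina and 12.33 to 12.58 in the uterus. Krt8, the brightest, gave -0.27 between the vaginal groups (adjusted p = 0.861) and 1.11 between the cHet organs (adjusted p = 0.000444). Of 10 basal markers 3 fell in the cKO vagina (Col17a1, Krt17 and Lamb3), where 0.327% of all genes were called lower. The median of the 10 was -1.30, while Trp63 gave -0.06, Dst 0.20 and Itga6 -0.30, not called. The summed level of the 10 was 13.01 to 13.87 in the cHet vagina and 11.39 to 12.42 in the cKO vagina. In the uterus it was 10.34 to 10.68. Such a sum follows its brightest genes. The part of the basal markers in the differences of Sfn and Ppl was not tested. Of 11 suprabasal epidermal markers on the array 8 did not pass the filter, Krt1, Krt2 and Flg2 among them, so most of these genes could not be compared.

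Tissue of other kinds was also uneven between pools. The summed red blood cell markers reached 16.35 in cKO vagina replicate 3, against 14.72 to 15.25 in the other cKO pools and 14.21 to 14.75 in the cHet vagina. The summed skeletal muscle markers reached 10.33 in the same pool, against 7.80 to 9.12 in the other cKO pools and 7.85 to 9.52 in the cHet vagina, where replicate 1 was the highest. Without cKO vagina replicate 3 the difference was -1.40 for Sfn (adjusted p = 0.109) and -0.67 for Ppl (adjusted p = 0.117), and neither was called. The number of members called was also 0 in 8 of the other 11 omissions of 1 array, those of the 4 uterine arrays among them.

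**Figure D4:**
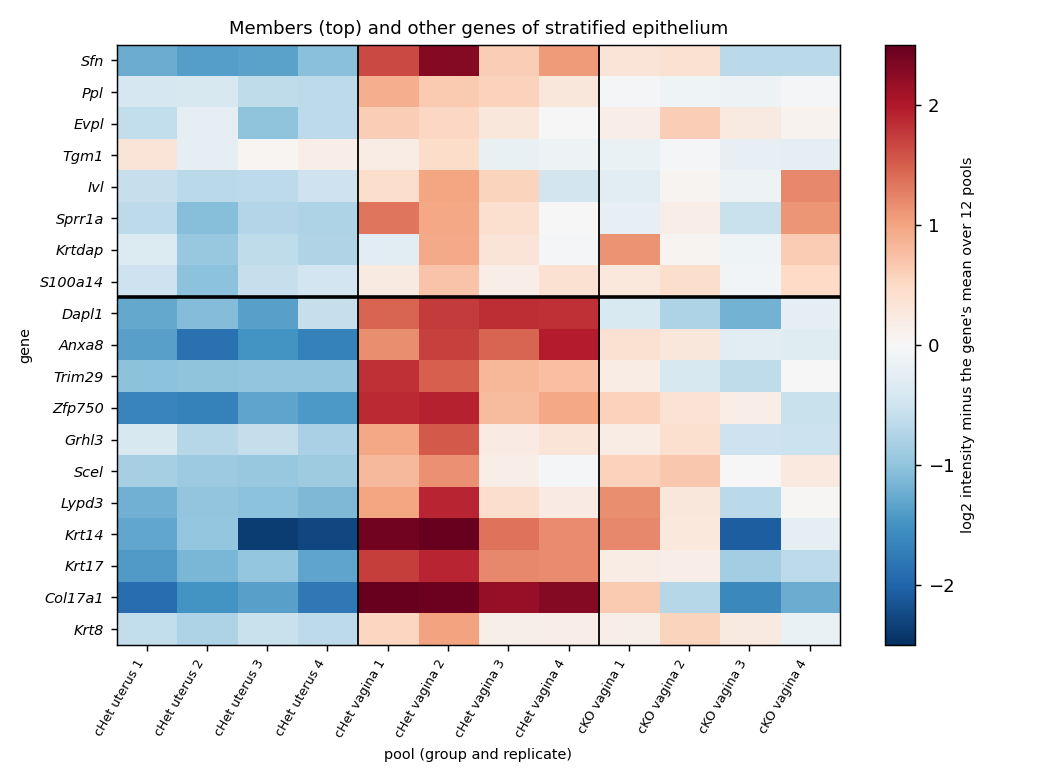
Log2 intensity minus each gene's mean over the 12 pools is shown in colour for the 8 tested members (above the line) and 11 other epithelial genes (below it), with pools in columns and the colour scale ending at 2.5 on either side. The 11 genes were picked by hand from those higher in the cHet vagina than in the uterus. Genes of the same lists that were lower there, such as Lor and Alox12b, are not shown. The red of the cHet vagina in nearly every row thus follows in part from the choice of rows. Sfn has its palest cKO columns in replicates 1 and 2 and blue ones in replicates 3 and 4, and Ivl and Sprr1a share a red cKO replicate 4.

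The members were not equally near to each other over the 12 pools. Profiles were compared by the root-mean-square distance between log2 values centred on each gene's mean. This is a description over 12 pools that share their group differences. The values were not scaled, so the distance follows the size of a gene's differences as well as their pattern. The nearest members were Ppl and Evpl, at 0.31, and Ivl and Sprr1a were at 0.35 from each other. Sfn, which had the largest difference between the cHet organs, stood farthest from the rest, at 0.78 to 1.14. The mean centred value of the 8 members ran from -0.74 to -0.51 in the uterus, from 0.14 to 0.94 in the cHet vagina and from -0.21 to 0.32 in the cKO vagina.

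Among all tested genes outside the set, Gata3, which encodes a transcription factor of many epithelia, was nearest to the mean member profile, at 0.14 over 12 pools. It was followed by Tmprss2, a transmembrane serine protease gene (0.16), Tnfrsf18, a tumour necrosis factor receptor relative (0.16), Ildr1, a protein of tricellular junctions (0.17), and Ociad2 (0.19). Gata3 gave -0.46 between the vaginal groups, 1.07 for the cHet vagina against the uterus and 0.61 for the cKO vagina against the uterus. The gene nearest to Sfn was the keratin gene Krt17, at 0.27, with differences of -1.80, 2.72 and 0.92 in the same order.

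For the other members the nearest genes were Vav3 for Ppl (0.13), Rap1gap2 for Evpl (0.15), Lrrc30 for Tgm1 (0.11), Esyt3 for Ivl (0.30), Tmprss13 for Sprr1a (0.37), Eva1a for Krtdap (0.29) and Tmprss2 for S100a14 (0.19). Vav3, a guanine nucleotide exchange factor gene, gave -0.75 between the vaginal groups, and Eva1a gave 0.10. Each of these genes was picked for its likeness, so its differences are a description with no test.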

How the data were processed

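RNA from 12 pools was hybridised as biotin-labelled cRNA to Illumina arrays, per the labels. The table used holds the authors' deposited linear intensity values, which have about the same mean on every array; the sources used here give neither the scaling method nor the scanner steps. Another deposited table, of 24 columns (12 of them signals), matched no sample label and was not used. The log2 values were computed here: the background of each array was taken from its own mode, removed by the normexp model (offset 16), and arrays were quantile normalized. A probe was kept if above the 99% level of background on at least 4 arrays, and the kept probe with the highest mean stands for its gene. Symbols came from the platform annotation (34885 probes with 1 symbol, 18 with several and 10378 with none).

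limma 3.58.1 in R 4.3.3 fitted all 12 arrays with 3 groups, two-sided, with Benjamini-Hochberg adjustment and 95% intervals, and figures used matplotlib 3.10.9. The number of arrays limits the precision, and p-values measure the spread between pools. The fit was also run on simulated data, drawn without any difference between the sets of replicates. Deviations of same-numbered pools from their group means correlated with r over 0.1 in all 4 pairs of cHet vagina and uterus (0.116 to 0.429). In each of the other comparisons 3 of 4 pairs did. The best uterine match of cHet vagina replicate 1 was replicate 2, and that of replicate 2 was replicate 1. Between the vaginal groups replicates 3 and 4 were crossed in the same way. The values thus do not show that same-numbered pools are pairs, and the labels do not say so.

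The members and lists were chosen with earlier results of these data known. All 10 members and their probes are given. From the lists of other envelope genes, other squamous genes and regulators, up to 6 called genes with the largest differences and the brightest gene could be named, from the families any kept gene, of the marker lists counts, ranges and the brightest gene, and the genes nearest in profile. Some genes were named beyond this rule. They are Klk10, Vdr, Calml3, Ly6d, Ly6g6c, Perp, the named markers that are not the brightest of their list, and Sprr2f and Zfp750 between the vaginal groups. Alternatives covered background, offset, scaling, filter, probe choice, samples fitted, variance model, blocks and leaving out each array.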

Additional observations from a re-analysis of the deposited data

Results flagged for a closer look

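In 3 cases a member probe left out of the tests for dimness was above background on a cKO array and above every cHet array. The second Sfn probe read 4.50 in cKO vagina replicate 1, against 4.10 to 4.25 on the 8 cHet arrays. The first Krtdap probe read 4.87 in cKO vagina replicate 4, against 4.11 to 4.59. The first Cnfn probe read 4.59 in cKO vagina replicate 1, against 4.09 to 4.22. Each rests on 1 pool of 4 and was not tested. Dixon's test, which few groups of 4 can pass, picked out no pool of a kept member probe among the 33 groups examined, the high Ivl reading of cKO vagina replicate 4 included.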

How the results depend on the processing

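Between the vaginal groups the number of members called, 2 in the reported fit, was 1 without background correction, with an offset of 50, with no filter on dim probes, with the mean of a gene's kept probes, with all kept probes fitted, with the trend and robust variance model and in replicates 3 and 4 alone. It was 0 under median scaling and when only the groups compared were fitted, and 0 to 2 when 1 array was left out. Both Sfn and Ppl kept the direction of their difference under all 26 alternatives, with differences of -1.83 to -0.84 for Sfn (adjusted p = 0.00179 to 0.175) and -0.84 to -0.38 for Ppl (adjusted p = 0.0115 to 0.392). With an offset of 50 the member median against the uterus was 0.76 for the cHet vagina and 0.50 for the cKO vagina. The number called in the cHet vagina against the uterus, 7, was 5 to 7 under the same alternatives, also without 1 array. In the cKO vagina against the uterus, 6 became 4 to 7, and 3 to 7 without 1 array, with 3 without cHet uterus replicate 3 or cKO vagina replicate 2. With the replicate block the numbers stayed at 2, 7 and 6, and that block changed no member call.

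Signs turned only for members that were not called. Between the vaginal groups, Evpl gave 0.0511 and S100a14 0.0517 under median scaling, and in replicates 3 and 4 alone Evpl gave 0.0206, Ivl 0.49 and Sprr1a 0.0698. Tgm1 gave -0.26 in replicates 3 and 4 alone for the cHet vagina against the uterus. When 1 array was left out, Tgm1 ran from -0.11 to 0.10 there, and between the vaginal groups Evpl ran from -0.198 to 0.00672, Ivl from -0.493 to 0.0390, S100a14 from -0.165 to 0.0260 and Krtdap from -0.0437 to 0.420. The probes of a gene had 1 sign in 4 of 6 pairs of gene and comparison. Among the 4, Ppl between the vaginal groups counts only through its dim probe, whose difference of -1.37e-06 has no meaningful sign. The number was 2 under median scaling, 13 of 18 with no filter and 2 to 4 without 1 array. Median scaling moved the median of all genes to 0.08 between the vaginal groups, with 30% of the 30 calls higher against 14% of 43, and to 0.13 for the cKO vagina against the uterus, with 69.3% of calls higher against 48.6%. The cause was not tested. Signals near background limit what can be said of Tgm1, Ivl, Krtdap, Sprr1b and Cnfn.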

Other observations

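S100a8 and S100a9, genes of the S100 family that granulocytes express strongly, read high in the pool with the most red blood cell and muscle markers. S100a8 read 8.86, 8.22, 10.27 and 7.88 in the cKO vagina and 7.04, 7.51, 7.43 and 7.60 in the cHet vagina, so the groups did not overlap, and the difference of 1.41 (SE 0.35, adjusted p = 0.133) did not pass the test. S100a9 read 6.88, 6.20, 9.17 and 6.43 in the cKO vagina and 5.45, 5.34, 5.62 and 6.28 in the cHet vagina, with overlap, a difference of 1.495 (SE 0.46, adjusted p = 0.283). In the uterus S100a8 read 8.50 to 8.88 and S100a9 read 6.79 to 7.25.

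The 5 uroplakin markers, of the lining of the bladder, went opposite ways between the organs. Upk2 and Upk1a were higher in the cHet vagina than in the uterus, by 4.32 (adjusted p = 1.77e-10) and 2.95 (adjusted p = 1.81e-05), Upk2 against a uterine level above background on 1 of 4 arrays, and Upk3a was at least 1.497-fold higher (adjusted p = 0.0115). Upk3b and Upk1b were lower there, by -3.70 (adjusted p = 1.43e-08) and -1.34 (adjusted p = 0.0125). Between the vaginal groups Upk2 was lower in the cKO vagina, by -1.35 (adjusted p = 0.00175), and the other 4 were not called. Upk3a was not above background on any uterine array. Upk2 and Upk3a passed the filter through vaginal arrays, which partly set their direction against the uterus. The part of the uroplakins in the member values was not tested.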
